A study of Homo sapiens with 6 samples.

Results

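The genes described here are 40 components and regulators of autophagy, and all 40 were found among the 39168 Ensembl identifiers of the count table and passed the filter on low counts, along with 12821 genes in all. They were taken by gene symbol, without a threshold on any measured value, and fall into 7 roles: the initiation complex, the nucleation complex, growth of the phagophore, the conjugation enzymes and ATG4 proteases, the ATG8 family, the cargo receptors and the MiT/TFE transcription factors. Their expression was compared between CAL62 cells exposed to erianin (50 nM, 48 h) and CAL62 cells given the solvent DMSO for the same 48 h, with 3 RNA-seq libraries in each group. CAL62 is an established human anaplastic thyroid carcinoma line, listed as wild type in both groups, and erianin is a small molecule from the orchid genus Dendrobium. Only 1 cell line, 1 dose and 1 time point were sequenced, and the replicates are described as separate experiments without further detail. Where they shared a culture, the p-values would measure only technical spread.

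Autophagy encloses cytoplasm in a double membrane, the autophagosome, and delivers it to the lysosome for breakdown. The ULK1 kinase complex starts the process, a lipid kinase complex built around PIK3C3 and BECN1 marks the membrane, and ATG proteins enlarge it and attach ATG8 proteins such as LC3 to its lipid. Cargo receptors bind both ATG8 proteins and ubiquitinated cargo, and the MiT/TFE factors drive transcription of autophagy and lysosome genes. Much of this control acts on proteins, through phosphorylation and turnover, so mRNA levels are a measure of supply and not of autophagic flux.

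Between 25776301 and 34107727 reads were counted on named genes per library. Values below are CPM, the reads of a gene relative to the total of its library after TMM adjustment of the totals, which makes libraries of different depth comparable. TPM further divides by a length for each gene. The log2 fold changes are erianin against DMSO ± SE from edgeR's quasi-likelihood test with Benjamini-Hochberg adjustment over all genes tested. A gene is said to have risen or fallen when its adjusted p was under 0.05, and is called when its log2 fold change was also over 0.5 in size. The thyroid marker PAX8 stood between 419 and 739 CPM, while the thyroid genes TSHR and NKX2-1 were listed at 0 and TG and SLC5A5 each stayed under 1 CPM. Markers of leukocytes summed to at most 4.36 CPM and those of endothelial cells to at most 0.771 CPM. Fibroblast markers summed to 43.2 to 47.3 CPM with DMSO and 50.3 to 56.6 CPM with erianin, with COL1A1 at -0.32 ± 0.09 and COL1A2 at 1.35 ± 0.18 on the log2 scale. Epithelial markers summed to 2538 to 3419 CPM with DMSO and 2713 to 2904 CPM with erianin. Keratins carried this sum. KRT7 gave -0.37 ± 0.10 (adjusted p = 0.0497, edgeR), KRT8 0.01 ± 0.11, KRT18 -0.21 ± 0.11 and KRT19 -0.21 ± 0.17. EPCAM gave 0.26 ± 0.10 (adjusted p = 0.132, edgeR), and CDH1 stayed under 1 CPM and was not tested. The sum of the 5 mesenchymal markers (6492 to 8428 against 4100 to 4643 CPM) was lower in every erianin library, as was PAX8 (643 to 739 against 419 to 433 CPM), and their part in the results was not tested. The mesenchymal sum was carried by FN1 (-0.80 ± 0.12) and VIM (-0.47 ± 0.11), while ZEB1 gave -0.01 ± 0.31 and SNAI2 0.98 ± 0.33. In bulk RNA, fewer cells of a type and less RNA per cell cannot be told apart.

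DMSO replicate 3 stood apart from the other libraries. Its distance to DMSO replicates 1 and 2 was 64.1 and 62.9 (Euclidean, on log2 CPM), against 37.2 between those 2 libraries and 28.2 to 29 among the erianin libraries. From the erianin libraries, DMSO 1 and 2 lay at 58.5 to 62.3 and DMSO replicate 3 at 68.3 to 69.3. The spread within the DMSO group was thus as large as the distance of DMSO 1 and 2 to the erianin libraries. Among the 39 autophagy genes with a mean of at least 1 CPM, the log2 CPM of DMSO replicate 3 differed from the mean of DMSO 1 and 2 by between -0.77 for ATG101 and 0.87 for RB1CC1. The median size of this difference was 0.30, against 0.08 between DMSO 1 and 2. The difference fell with the GC content of the transcript, with Pearson's r = -0.67 and Spearman's rho = -0.63 across these genes, which share the same libraries and are not independent replicates. Over 11431 genes the same values were -0.56 and -0.59. Results are therefore given with all 6 libraries and without DMSO replicate 3, and the part of this library or of GC content in any difference between groups was not tested.

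**Figure D1:**
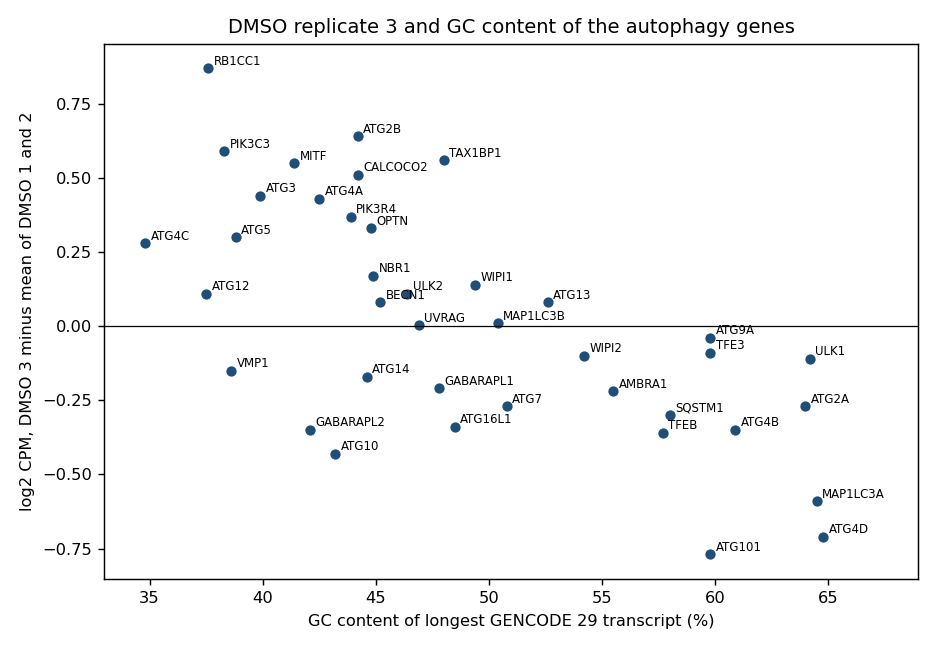
Difference in log2 CPM between DMSO replicate 3 and the mean of DMSO replicates 1 and 2 (vertical axis) against the GC content of the longest transcript in percent (horizontal axis), 1 point for each of the 39 autophagy genes with a mean of at least 1 CPM. Genes of low GC content such as RB1CC1 (0.87) tend to lie above 0 and genes of high GC content such as ATG4D (-0.71) below it.

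With all 6 libraries, 3 of the 40 genes were called higher with erianin, against 5.37% of all genes tested: the LC3 gene MAP1LC3B, the receptor SQSTM1 (p62) and the protease ATG4A. None was called lower, against 3.36% of all genes. By DESeq2 the calls were 2 higher and 0 lower, and by edgeR 13 of the 40 had an unadjusted p under 0.05, against 30.9% of all genes. At an adjusted p under 0.05 alone, 4 genes rose (background 7.22%), with ATG5 as the addition, and 2 fell (background 7.69%), ATG7 and ATG13. These shares are close to the backgrounds. The estimates were above 0 for 24 genes and below 0 for 16, with a median of 0.13 beside 0.0014 over all genes tested, and 35 of the 40 lay within 0.5 of no change.

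Without DMSO replicate 3, the estimated variation between replicates (biological coefficient of variation) dropped from 0.139 to 0.0421 and more genes passed throughout the transcriptome. Of the 40 genes, 18 then rose, against 27.5% of all genes tested, and 9 fell, against 27.7%. The called genes were 7 higher (background 11.4%) and 1 lower (background 6.11%). Called higher were RB1CC1, ATG4A, ATG5, MAP1LC3A, MAP1LC3B, TAX1BP1 and MITF, and called lower was ATG7. SQSTM1 remained among the genes that rose, at 0.46 ± 0.04, under the fold threshold. With the GC trend of each library removed as well, an alternative chosen after seeing the data, 8 genes rose and 8 fell, with 4 called higher and 2 called lower. The excess of rises over falls among the 40 genes therefore depended on these choices.

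The CPM values of the groups did not overlap for 15 of the 40 genes, 11 higher and 4 lower with erianin, beside 38.7% of all genes tested in either direction. The count of 15 is close to that share, and the split by direction was not set against all genes.

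**Figure D2:**
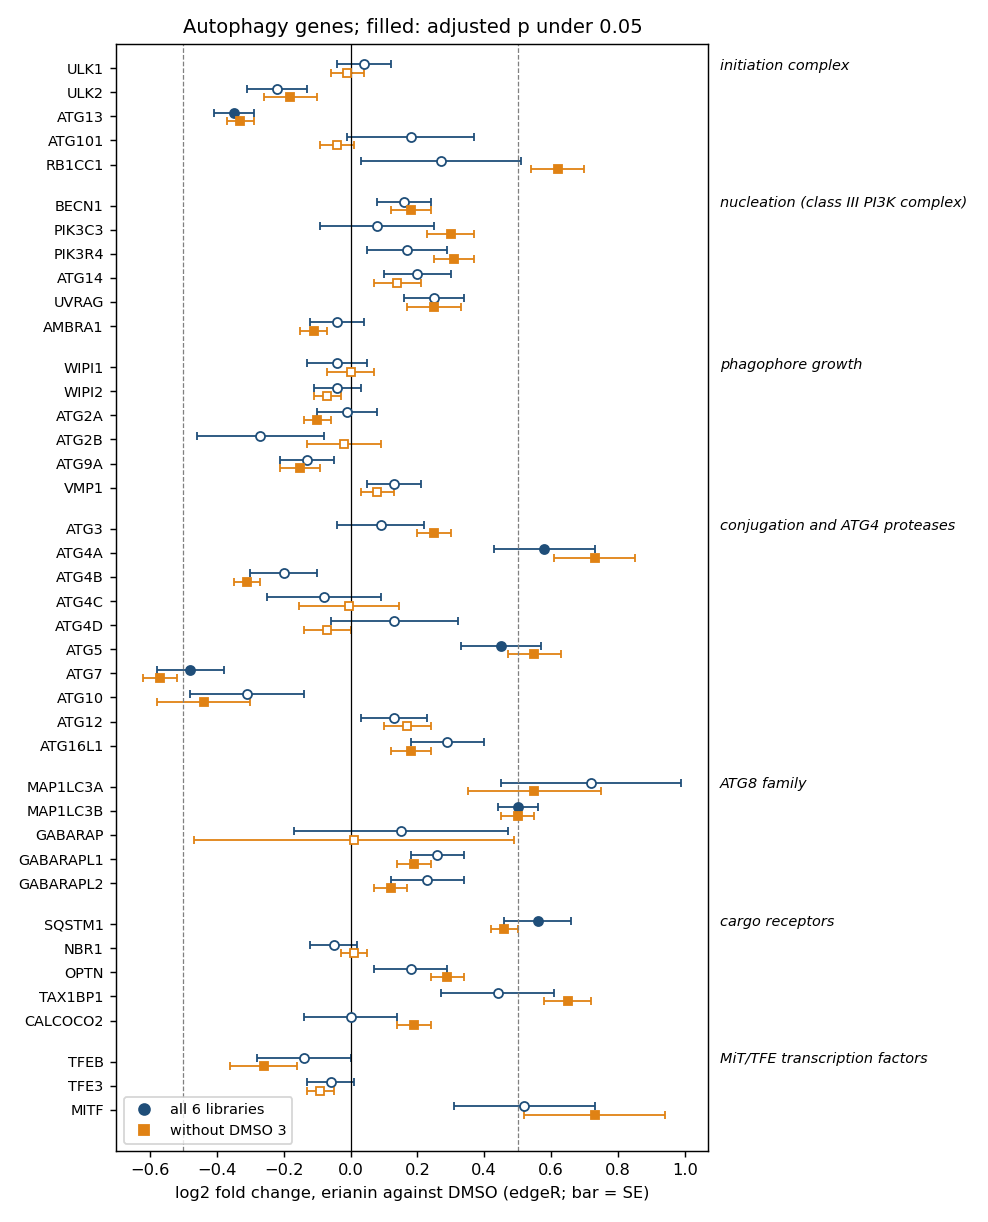
log2 fold change, erianin against DMSO, of the 40 autophagy genes grouped by role (points, horizontal axis), with SE bars, from all 6 libraries (circles) and without DMSO replicate 3 (squares). Filled symbols have an adjusted p under 0.05 by edgeR and dashed lines mark 0.5 in each direction. With all 6 libraries 6 circles are filled, and without DMSO replicate 3 the filled squares number 27.

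The sequences upstream of SQSTM1, MAP1LC3B and ATG4A are shown because these are the 3 called genes. Each is the 250 bases before the gene's RefSeq start on GRCh38.p14, plus strand, written 5′ to 3′, with motif matches in capitals. SQSTM1 lies at chr5:179806143-179806392, MAP1LC3B at chr16:87392086-87392335 and ATG4A at chrX:108091528-108091777.
SQSTM1: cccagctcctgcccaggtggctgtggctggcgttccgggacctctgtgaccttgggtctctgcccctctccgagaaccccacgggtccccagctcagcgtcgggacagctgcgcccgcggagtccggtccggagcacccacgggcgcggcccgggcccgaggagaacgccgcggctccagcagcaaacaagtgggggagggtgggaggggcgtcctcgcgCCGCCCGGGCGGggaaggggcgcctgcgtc
MAP1LC3B: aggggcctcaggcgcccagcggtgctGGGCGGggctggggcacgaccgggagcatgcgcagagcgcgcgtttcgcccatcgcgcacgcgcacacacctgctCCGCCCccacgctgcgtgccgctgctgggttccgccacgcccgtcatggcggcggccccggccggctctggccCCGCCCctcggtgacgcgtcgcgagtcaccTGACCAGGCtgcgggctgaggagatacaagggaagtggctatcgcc
ATG4A: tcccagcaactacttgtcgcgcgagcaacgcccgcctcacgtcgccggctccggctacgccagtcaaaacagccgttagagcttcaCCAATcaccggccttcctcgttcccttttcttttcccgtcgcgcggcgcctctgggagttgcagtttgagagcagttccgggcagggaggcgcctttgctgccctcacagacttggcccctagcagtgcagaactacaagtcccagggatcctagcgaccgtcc
The capitals mark GC boxes (GGGCGG, read on either strand) in SQSTM1 and MAP1LC3B, an antioxidant response element match (TGACNNNGC) starting 46 bases before the start of MAP1LC3B, and a CCAAT box starting 164 bases before that of ATG4A. Of the 40 genes, 36 were found in the RefSeq promoter table. The E-box CACGTG, the core of the site bound by the MiT/TFE factors, was in the windows of ATG3 and ATG14 (5.56% of 36, against 6.34% of all 35116 promoters). The ATF4 site TGATGNAA had no match among the 36 and was in 3.14% of all promoters. GC boxes were in 66.7% of the 36 windows and 42.6% of all, CCAAT in 33.3% and 32%, and the antioxidant element in 8.33% and 10.9%. Both strands were searched, and a match describes letters only. The set of all promoters was not limited to expressed genes, whereas the autophagy genes all passed the count filter, so these shares do not show enrichment.

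The initiation complex consists of the kinases ULK1 and ULK2, the scaffolds ATG13 and RB1CC1 (FIP200), and ATG101, which stabilizes ATG13. Of these 5 genes, ATG13 fell and none rose. ATG13 measured 291, 289 and 307 CPM in DMSO replicates 1, 2 and 3, and 229, 238 and 228 CPM with erianin. Every erianin library lay below every DMSO library, and the log2 fold change was -0.35 ± 0.06 (adjusted p = 0.0144, edgeR; -0.33 ± 0.04 without DMSO replicate 3). On log2(TPM + 1), where the median of all genes was 0.18, it was -0.15 (adjusted p = 0.127, limma). This result was lost without any 1 of the erianin replicates (adjusted p from 0.0736 to 0.0951, edgeR).

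ATG101, the gene of this complex with the highest level per length (mean 112 TPM), measured 129, 121 and 73.1 CPM with DMSO and 124, 116 and 124 CPM with erianin. Only DMSO replicate 3 was low, and the log2 fold change of 0.18 ± 0.19 turned to -0.04 ± 0.05 without it. RB1CC1 showed the opposite picture, at 23.9, 26.8 and 46.4 CPM with DMSO and 37.1, 36.6 and 43.8 CPM with erianin. Here DMSO replicate 3 exceeded all erianin libraries, and the estimate of 0.27 ± 0.24 became 0.62 ± 0.08 (adjusted p = 5.73e-08, edgeR) without it. With the GC trend removed as well, RB1CC1 gave 0.29 ± 0.08 (adjusted p = 0.00154, edgeR), under the fold threshold. ULK1 was near no change with all libraries and without DMSO replicate 3 (0.04 ± 0.08 and -0.01 ± 0.05). With all libraries, ULK2 gave -0.22 ± 0.09 (adjusted p = 0.157, edgeR), with erianin libraries at 20.8 to 22.8 CPM below DMSO libraries at 24.9 to 26.9 CPM. ULK2 fell when DMSO replicate 3 was left out (-0.18 ± 0.08, adjusted p = 0.0433, edgeR). With the GC trend removed it fell with all libraries (-0.30 ± 0.08, adjusted p = 0.0327, edgeR) and without DMSO replicate 3 (-0.30 ± 0.08, adjusted p = 0.00133, edgeR).

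The nucleation complex makes the lipid PI3P. PIK3C3 (VPS34) is its catalytic subunit, PIK3R4 (VPS15) its regulatory kinase and BECN1 its scaffold, ATG14 and UVRAG define alternative forms of it, and AMBRA1 activates it. None of the 6 genes passed the test with all libraries, and the estimates ran from -0.04 (AMBRA1) to 0.25 (UVRAG). PIK3R4, with the highest mean TPM of the 6 (33.7), measured 45, 43.5 and 57.2 CPM with DMSO and 55, 56.4 and 53.1 CPM with erianin. The erianin libraries lay above DMSO 1 and 2 and below DMSO 3, and the estimate moved from 0.17 ± 0.12 to 0.31 ± 0.06 (adjusted p = 5.66e-05, edgeR) without that library. BECN1, ATG14 and UVRAG were higher in every erianin library than in every DMSO library, with log2 fold changes of 0.16 ± 0.08, 0.20 ± 0.10 and 0.25 ± 0.09 (adjusted p = 0.22, 0.229 and 0.0937, edgeR). BECN1, PIK3C3, PIK3R4 and UVRAG rose without DMSO replicate 3, by 0.18 to 0.31, and AMBRA1 fell (-0.11 ± 0.04). With the GC trend removed as well, BECN1 gave 0.04, PIK3C3 -0.01, PIK3R4 0.13, UVRAG 0.14 and AMBRA1 -0.08. None of these passed (adjusted p from 0.0682 to 0.944, edgeR).

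Growth of the phagophore uses the PI3P-binding proteins WIPI1 and WIPI2, the lipid transfer proteins ATG2A and ATG2B, the scramblase ATG9A and VMP1, a membrane protein of the endoplasmic reticulum. None of these 6 genes passed the test with all libraries, and 5 of their 6 estimates were below 0, from -0.27 (ATG2B) to -0.01 (ATG2A), with VMP1 at 0.13. On the TPM scale, WIPI1, WIPI2, ATG2A and ATG9A turned to above 0 but stayed near or under the shifted median of all genes. VMP1, the most abundant per length (mean 66 TPM), measured 166, 176 and 154 CPM with DMSO and 172, 195 and 177 CPM with erianin. The groups overlapped, and the log2 fold change was 0.13 ± 0.08 (adjusted p = 0.323, edgeR). ATG2B was low in every library, at 15.5 CPM in DMSO replicate 3 and 8.79 to 10.4 CPM in the others. Its estimate of -0.27 ± 0.19 became -0.02 ± 0.11 without DMSO replicate 3, and -0.19 ± 0.11 (adjusted p = 0.155, edgeR) with the GC trend removed as well. ATG2A (-0.10 ± 0.04) and ATG9A (-0.15 ± 0.06) fell when DMSO replicate 3 was left out. With the GC trend removed as well, ATG2A gave 0.02 and ATG9A -0.07 (adjusted p = 0.756 and 0.277, edgeR). In that fit VMP1 fell (-0.22 ± 0.05, adjusted p = 0.000174, edgeR), opposite in sign to its estimate with all libraries. Of the exon bases of ATG9A, 38.8% also belong to a second annotated gene on the same strand, so its reads may be split.

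The conjugation genes act as 2 linked enzyme chains. ATG7 activates both ATG12 and the ATG8 proteins, ATG10 and ATG3 carry them, the ATG12-ATG5 conjugate with ATG16L1 directs ATG8 proteins to the membrane, and the proteases ATG4A to ATG4D process ATG8 proteins and remove them again. Of these 10 genes, ATG4A and ATG5 rose and ATG7 fell.

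ATG7 measured 131, 128 and 107 CPM with DMSO and 90.6, 91.3 and 80.3 CPM with erianin. All erianin libraries lay below all DMSO libraries, DMSO replicate 3 being the nearest to them, and the log2 fold change was -0.48 ± 0.10 (adjusted p = 0.0203, edgeR), a level 0.715 times that of DMSO. With DMSO replicate 3 left out it was -0.57 ± 0.05, and without any other library the adjusted p lay between 0.0673 and 0.106 (edgeR). On log2(TPM + 1) it was -0.27 (adjusted p = 0.171, limma). Exons of VGLL4 on the opposite strand cover 18.1% of the exon bases of ATG7, and no source says if reads were counted by strand.

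ATG5 measured 15, 15.8 and 19 CPM with DMSO and 23.7, 22.4 and 22 CPM with erianin, without overlap. Its log2 fold change was 0.45 ± 0.12 (adjusted p = 0.0422, edgeR), and 0.55 ± 0.08 without DMSO replicate 3. ATG4A, the lowest-count gene of the 3 called, measured 6.04, 6.84 and 8.64 CPM with DMSO and 10.3, 10.6 and 11.4 CPM with erianin. Again DMSO replicate 3 was the nearest to the erianin libraries, and the log2 fold change was 0.58 ± 0.15 (adjusted p = 0.0417, edgeR; 0.73 ± 0.12 without DMSO replicate 3). For both genes the adjusted p passed 0.1 without any 1 of the other 5 libraries (up to 0.167 for ATG4A and 0.168 for ATG5, edgeR), and with the GC trend removed they gave 0.46 (adjusted p = 0.023, edgeR) and 0.28 (adjusted p = 0.053, edgeR).

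The other ATG4 proteases did not follow ATG4A. ATG4B, the main protease for LC3 in many cells, gave -0.20 ± 0.10 (adjusted p = 0.246, edgeR) with all libraries and fell by 0.31 on the log2 scale without DMSO replicate 3, where DMSO 1 and 2 stood at 133 and 134 CPM and each erianin library at 108 CPM. ATG4C gave -0.08 ± 0.17 and ATG4D 0.13 ± 0.19, and neither passed in either of these fits. With the GC trend removed as well, ATG4B fell (-0.22 ± 0.04, adjusted p = 8.43e-05, edgeR) and so did ATG4C (-0.39 ± 0.16, adjusted p = 0.0368, edgeR). ATG4D gave 0.05 (adjusted p = 0.524, edgeR) in that fit. ATG3, the most abundant of the 10 per length (mean 40.1 TPM), measured 65.6, 65.9 and 89.5 CPM with DMSO and 76.6, 79.1 and 79.1 CPM with erianin. DMSO replicate 3 lay above the erianin libraries and DMSO 1 and 2 below, so that the estimate of 0.09 ± 0.13 became 0.25 ± 0.05 (adjusted p = 0.000144, edgeR) without it. ATG16L1, without overlap, gave 0.29 ± 0.11 (adjusted p = 0.128, edgeR), ATG12 gave 0.13 ± 0.10, and ATG10, at 4.36 to 7.15 CPM, gave -0.31 ± 0.17. When DMSO replicate 3 was left out, ATG16L1 rose (0.18 ± 0.06, adjusted p = 0.0122, edgeR) and ATG10 fell (-0.44 ± 0.14, adjusted p = 0.00837, edgeR). With the GC trend removed as well, ATG3 gave -0.03 (adjusted p = 0.673, edgeR) and ATG16L1 0.11 (adjusted p = 0.127, edgeR). ATG10 then gave -0.64 ± 0.14 (adjusted p = 0.000219, edgeR).

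The ATG8 family is the set of ubiquitin-like proteins that mark the autophagosome: the LC3 proteins MAP1LC3A and MAP1LC3B, and GABARAP, GABARAPL1 and GABARAPL2. The 5 estimates were all above 0, from 0.15 to 0.72 with a median of 0.26, though GABARAP (-0.03) and GABARAPL2 (-0.11) turned with the GC trend removed and DMSO replicate 3 left out. Of the 5, MAP1LC3B rose. MAP1LC3B measured 112, 108 and 111 CPM with DMSO and 153, 161 and 155 CPM with erianin. Both groups were tight and far apart, and DMSO replicate 3 lay within the range of its group. The log2 fold change was 0.50 ± 0.06 (adjusted p = 0.00463, edgeR), a 1.42-fold higher level that lies on the fold threshold. MAP1LC3B was the only one of the 40 genes with an adjusted p under 0.05 (edgeR) in each of the 6 fits that left out 1 library, the highest being 0.0446.

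GABARAPL2, with the highest mean TPM of the family (114), measured 97.4, 90.3 and 73.8 CPM with DMSO and 97.9, 103 and 105 CPM with erianin. GABARAPL1 measured 136, 126 and 114 CPM and then 147, 152 and 151 CPM. The groups did not overlap for either gene, narrowly for GABARAPL2, and the log2 fold changes were 0.23 ± 0.11 (adjusted p = 0.208, edgeR) and 0.26 ± 0.08 (adjusted p = 0.0761, edgeR). Both rose when DMSO replicate 3 was left out, by 0.12 ± 0.05 and 0.19 ± 0.05. With the GC trend removed as well, GABARAPL2 turned as given above and GABARAPL1 gave 0.11 (adjusted p = 0.0573, edgeR). MAP1LC3A was at 1.96 to 3.94 CPM with DMSO and 4.1 to 5.02 CPM with erianin, a log2 fold change of 0.72 ± 0.27 (adjusted p = 0.115, edgeR). GABARAP was listed at 0.321 to 0.498 CPM, from few reads, and 55.7% of its exon bases are shared with other annotated genes, 30.5% with a gene on the same strand, so its level is uncertain.

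On the TPM scale, which divides by a length for each gene, GABARAPL2 made up 47.8% ± 2.62 (SD, n = 3) of the summed ATG8 family with DMSO and 44.4% ± 0.667 with erianin. MAP1LC3B made up 30.2%, 31.5% and 35.9% with DMSO and 36.7%, 36.9% and 35.5% with erianin. DMSO replicate 3 overlapped the erianin range. GABARAPL1 made up 17.5% ± 0.0485 and 16.6% ± 0.177. The order of MAP1LC3B and GABARAPL1 depends on the length used: with the longest coding transcript of GENCODE 29 as the length, chosen after seeing the data, MAP1LC3B had 22.4% and GABARAPL1 29.6% with DMSO.

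Among the cargo receptors, SQSTM1 (p62) rose and NBR1, OPTN, TAX1BP1 and CALCOCO2 (NDP52) did not pass the test with all libraries. SQSTM1 measured 592, 575 and 473 CPM with DMSO and 829, 782 and 810 CPM with erianin. The groups were well separated, with DMSO replicate 3 the lowest, and the log2 fold change was 0.56 ± 0.10 (adjusted p = 0.0115, edgeR), a 1.48-fold higher level. Leaving out DMSO replicate 3 gave 0.46 ± 0.04 (adjusted p = 1.79e-11, edgeR). Without any 1 of the erianin libraries the adjusted p lay between 0.0616 and 0.0726 (edgeR). Of its exon bases, 20.7% are covered by MRNIP on the opposite strand.

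TAX1BP1 measured 27.5, 25.5 and 39.1 CPM with DMSO and 42.3, 38.3 and 44 CPM with erianin. DMSO replicate 3 alone reached the erianin range, and the estimate was 0.44 ± 0.17 (adjusted p = 0.121, edgeR) with it and 0.65 ± 0.07 (adjusted p = 4.99e-09, edgeR) without it. CALCOCO2 moved likewise, from -0.00016 ± 0.14 to 0.19 ± 0.05, and OPTN from 0.18 ± 0.11 to 0.29 ± 0.05. NBR1 was near no change in both, at -0.05 ± 0.07 and 0.01 ± 0.04. Within the summed TPM of the 5 receptors, SQSTM1 made up 59.9%, 60.1% and 50.3% with DMSO and 65.8%, 65.1% and 65.5% with erianin, while NBR1 made up 26.9% ± 2.42 (SD, n = 3) and 20.3% ± 0.28. For both shares the groups did not overlap. Shares of 1 total are bound to each other, so these are not separate results. The TPM of NBR1 itself was not lower, at a mean of 84.2 with DMSO and 93.6 with erianin.

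**Figure D3:**
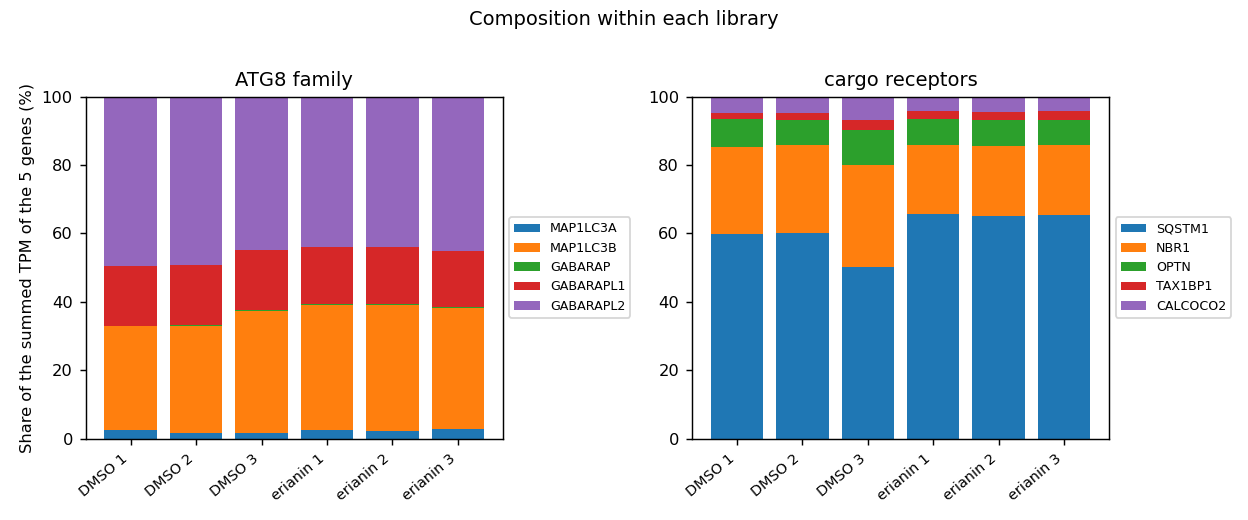
Shares of the summed TPM (percent, vertical axis) held by each of the 5 ATG8 genes (left) and each of the 5 cargo receptor genes (right) in the 3 DMSO and 3 erianin libraries, as stacked bars. The SQSTM1 share lies between 65.1% and 65.8% with erianin and at most at 60.1% with DMSO, and the MAP1LC3B share of DMSO replicate 3 reaches the erianin range.

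The MiT/TFE factors TFEB, TFE3 and MITF gave estimates of -0.14 ± 0.14, -0.06 ± 0.07 and 0.52 ± 0.21, and none passed the test (adjusted p = 0.558, 0.605 and 0.146, edgeR). TFE3, the most abundant per length (mean 113 TPM), measured 169, 164 and 157 CPM with DMSO and 161, 156 and 154 CPM with erianin, with overlap. MITF, the melanocyte regulator of the family, was low, at 1.88 to 2.83 CPM with DMSO and 2.74 to 3.52 CPM with erianin. Without DMSO replicate 3 it rose (0.73 ± 0.21, adjusted p = 0.00426, edgeR) and TFEB fell (-0.26 ± 0.10, adjusted p = 0.0342, edgeR).

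**Figure D4:**
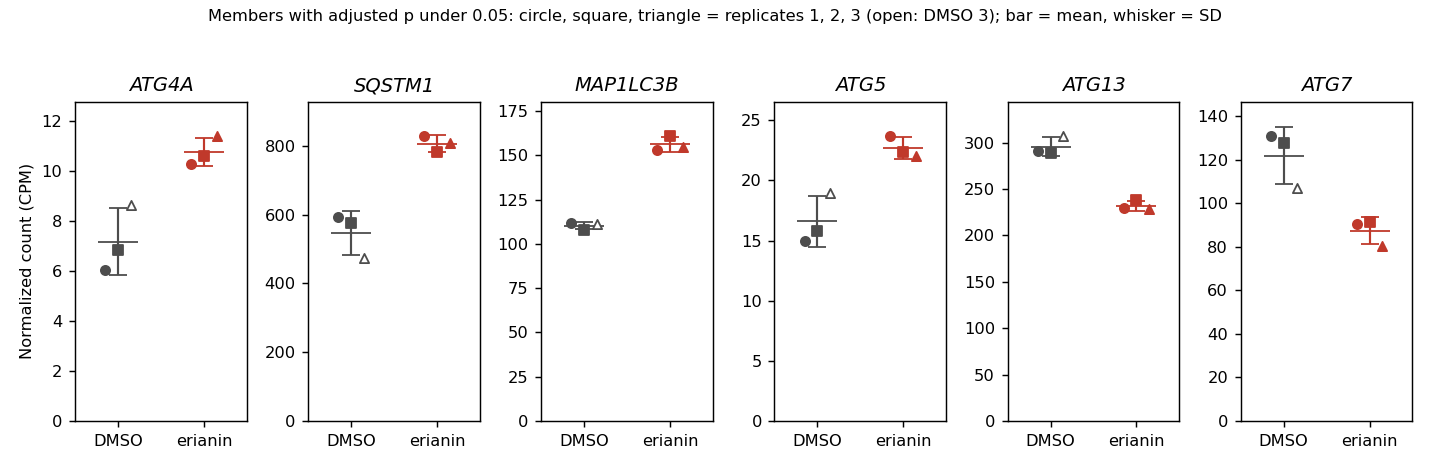
CPM in each library of the 6 autophagy genes with an adjusted p under 0.05 by edgeR, in DMSO (grey, replicate 3 open) and erianin (red), with the mean and SD of the 3 replicates and axes that start at 0. The groups do not overlap for any of the 6 genes, and the DMSO group of MAP1LC3B runs from 108 to 112 CPM.

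A wider list of 79 genes upstream and downstream of this machinery held 71 that could be tested. Of them 4 were called higher (background 5.37%) and none lower (3.36%), and at an adjusted p under 0.05 alone 4 rose (7.22%) and 7 fell (7.69%), by edgeR, with 25 at an unadjusted p under 0.05 (30.9%). DESeq2 called 5 higher and 0 lower. With DMSO replicate 3 left out, 72 could be tested, of which 21 rose (background 27.5%) and 22 fell (27.7%), with 7 called higher (11.4%) and 3 called lower (6.11%). These counts are near the share of all genes. The 4 called higher were ATG9B, a second ATG9 scramblase gene, PRKAB2, a subunit of the energy sensor AMPK, FUNDC1, a mitochondrial autophagy receptor, and GPNMB, a target of the MiT/TFE factors.

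ATG9B measured 1.89, 2.13 and 1.99 CPM with DMSO and 4.27, 4.87 and 3.48 CPM with erianin, a log2 fold change of 1.07 ± 0.18 (adjusted p = 0.0107, edgeR). PRKAB2 went from a mean of 14.5 to 22 CPM (0.61 ± 0.13) and FUNDC1 from 6.67 to 9.89 CPM (0.57 ± 0.11), both without overlap. GPNMB gave 1.67 ± 0.33 from only 6 to 32 reads per library. In the 6 fits that left out 1 library, the adjusted p (edgeR) of ATG9B was under 0.05 in 4, the highest being 0.0619. For PRKAB2, FUNDC1 and GPNMB it was under 0.05 in only 1 fit each, the highest being 0.096, 0.0957 and 0.0842.

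The 7 genes that fell were RPTOR, MLST8, AKT1S1 and TSC2 of the 11 tested genes of mTORC1 and its brakes, and PHB2, BCL2L13 and HDAC6 of the 16 tested selective receptors of organelles. RPTOR and MLST8 are subunits of mTORC1, the kinase complex that restrains ULK1, and AKT1S1 (PRAS40) and TSC2 are inhibitors of it. RPTOR measured 88.3, 91.6 and 83.2 CPM with DMSO and 65.1, 63.2 and 63.4 CPM with erianin, and gave -0.46 ± 0.07 (adjusted p = 0.00915, edgeR). TSC2 measured 132, 135 and 156 CPM and then 104, 98.3 and 99.4 CPM, and gave -0.49 ± 0.09 (adjusted p = 0.0121, edgeR). MTOR itself was near no change (0.01 ± 0.08), and 6 of the 11 estimates were above 0, with a median of 0.01. Among the other inhibitors, none of which passed the test, SESN1 gave 0.98 ± 0.27 (adjusted p = 0.0501, edgeR), DDIT4 0.34 ± 0.30, DEPTOR 0.23 ± 0.17, SESN2 0.08 ± 0.11 and TSC1 -0.04 ± 0.13. In TPM the differences were smaller, with RPTOR at a mean of 17.9 against 14.9 and TSC2 at 4.46 against 3.65. The median of all genes was itself 0.18 on log2(TPM + 1), against 0.0014 by edgeR, so the scales are not directly comparable. The 10 tested genes of MiT/TFE regulation and targets had a median of 0.35, with 8 estimates above 0 and only GPNMB past the test. The 15 genes of fusion with the lysosome had a median of -0.10, and none passed the test.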

How the data were processed

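For each gene the authors deposited raw counts, without normalization, and TPM values of the same 6 libraries. The submitters' processing notes name fastp 0.23.2, STAR 2.7.10, featureCounts 2.0.1, StringTie 2.2.1 and GRCh38, with no role or order given, and whether counting used the strand is not stated. TPM columns sum to 59.1% to 78.3% of their nominal total, and the lengths behind them, relative to GENCODE 29 coding transcripts, ran from 0.279 (ATG2B) to 2.34 (BECN1) times the median of the 40 genes. Rows without an identifier, 26480 of 65807, held 0.00385% to 0.00515% of counts and were left out. For an identifier on several rows, the row with most counts was taken. Counts per library set the precision.

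Counts were fitted with edgeR 4.0.16 (TMM, filterByExpr, glmQLFit and glmQLFTest, without a replicate term) in R 4.3.3, with SE derived from the F statistic. On simulated counts the fit recovered 200 of 200 changed genes and called 3 unchanged ones. The simulation held no outlying library and no GC trend, and its changes were larger than those of the autophagy genes. It therefore cannot show how the fit performs under these conditions. Alternatives used DESeq2 1.42.0, limma 3.58.1 on log2(TPM + 1) or log2(TPM + 0.1), keeping genes with mean TPM no lower than 1, or on all genes, other factors and filters, a replicate block, a loess GC offset (span 0.5), and each library left out. GC content was that of the longest GENCODE 29 transcript. Promoters were from RefSeq. Figures were drawn with matplotlib 3.10.9 and tables with pandas 2.3.3 in Python 3.11.15. The members and lists were chosen with earlier results of these data known. Values in every library are given for genes with an adjusted p under 0.05 and for the gene of highest mean TPM in each role. From the wider list, genes past both thresholds are named, with RPTOR, TSC2, MTOR and the other genes that fell named after their values were seen. RB1CC1, GABARAPL1, TAX1BP1 and other genes given in every library beyond that rule were likewise chosen after their values were seen. NCOA4 matched no identifier and was not analysed here. Protein sequences were not used here, and 1 marker gene is not reported here.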

Additional observations from a re-analysis of the deposited data

How the results depend on the processing

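The count of autophagy genes called higher (3) was 5 with limma on log2(TPM + 1), on log2(TPM + 0.1) and on unfiltered log2(TPM + 1), 1 with the GC offset with or without the replicate block, and 0 at a log2 threshold of 1. Called lower (0) became 1 without the count filter and with the GC offset with or without the block, and 2 with the GC offset and DMSO replicate 3 left out. Genes that rose (4) became 11, 11 and 10 on the 3 TPM scales, 2 with the replicate block and 8 with GC offset and no DMSO replicate 3. Genes that fell (2) became 0 on the TPM scales, 1 with the replicate block, 4 with the GC offset and 8 with that offset and no DMSO replicate 3. In the wider list, 4 called higher became 7 on log2(TPM + 0.1) and without the TPM filter, 1 with the replicate block, 2 with the GC offset and 2 at a threshold of 1, and 0 called lower became 1 without the count filter, 2 with the GC offset, 1 with the block and GC offset, and 3 with GC offset and no DMSO replicate 3. With 1 library left out, called higher ranged from 0 to 7, called lower from 0 to 1, rises from 1 to 18 and falls from 0 to 9, the upper ends without DMSO replicate 3 and the lower ends of called higher without erianin replicate 2. DMSO replicate 2 and erianin replicates 1 and 3, each left out, gave 1 called higher. Rises numbered 1 without any erianin replicate and 2 without DMSO replicate 2, and falls 0 without any erianin replicate and 1 without DMSO replicate 1 or 2. In the wider list these ranges were 0 to 7 and 0 to 3, highest without DMSO replicate 3 and with 0 called higher without erianin replicate 1 or 2. Same-numbered libraries correlated at 0.00138, 0.0253 and -0.0329 in their deviations from group means. With so few libraries per group and DMSO replicate 3 far from the others, these values cannot settle whether same-numbered libraries were paired.

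TPM scaling moved the median of all genes to 0.18, 0.20 (pseudocount 0.1) and 0.12 (no filter), so estimates near 0 turned positive with the scale. On log2(TPM + 1), with and without the filter, these were AMBRA1 0.16, WIPI1 0.15, WIPI2 0.16, ATG2A 0.19, ATG9A 0.06, ATG4B 0.01, ATG4C 0.11, NBR1 0.15, CALCOCO2 0.21, TFEB 0.05 and TFE3 0.14. With a pseudocount of 0.1, ATG9A gave 0.07, ATG4C 0.14, CALCOCO2 0.22 and TFEB 0.06, with AMBRA1 0.16, WIPI1 0.15, WIPI2 0.16, ATG2A 0.19, ATG4B 0.01, NBR1 0.15 and TFE3 0.14 as before. Upper-quartile factors turned AMBRA1 to 0.02, WIPI1 to 0.01, WIPI2 to 0.02, ATG2A to 0.04, NBR1 to 0.01 and CALCOCO2 to 0.05. The GC offset turned PIK3C3 to -0.08, VMP1, ATG3 and ATG12 to -0.06, and with the replicate block PIK3C3 to -0.08, VMP1 to -0.05, ATG3 and ATG12 to -0.06. The GC offset without DMSO replicate 3 turned PIK3C3 and ATG14 to -0.01, ATG2A to 0.02, VMP1 to -0.22, ATG3 to -0.03, ATG12 to -0.16, GABARAP to -0.03, GABARAPL2 to -0.11 and CALCOCO2 to 0.02. CALCOCO2 was 0.01 when each library had to hold at least 10 counts, and 0.02 with the replicate block. Leaving out 1 library gave ULK1 from -0.01 to 0.10, ATG101 from -0.04 to 0.32, PIK3C3 from -0.04 to 0.30, WIPI1 from -0.08 to 0.00058, ATG2A from -0.10 to 0.05, ATG4D from -0.07 to 0.24, NBR1 from -0.09 to 0.01 and CALCOCO2 from -0.09 to 0.19. The causes of these turns were not tested. Under the replicate block, ATG13 (adjusted p = 0.0669), ATG4A (0.0643) and ATG5 (0.101, edgeR) missed the threshold. DESeq2 and RLE factors kept all 40 genes on their side of the test.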
